A study of Mus musculus with 5 samples.

Results

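The 9 genes described here encode proteins that bind retinoic acid (Crabp1 and Crabp2), its nuclear receptors (Rara, Rarb and Rarg), enzymes that clear it or its precursor (Cyp26a1, Cyp26b1 and Dhrs3) and a cell-surface receptor that brings in its precursor retinol (Stra6). They were taken by name out of 18193 genes with a single symbol in the array annotation. All 9 were on the array, with 10 probe sets among them, and each gene is given by its probe set of highest mean signal. Rarg alone had a second probe set, which stayed under the floor explained below on all 5 arrays (3.04 to 37.3). The 9 were chosen with their values on these arrays known, so every level and difference given for them is a description without a test.

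The arrays measured total RNA of mouse embryonic stem cells grown on gelatin-coated plates towards a pancreatic fate. The 5 groups, of 1 array each, were cells at day 5 without MPA, cells at day 6 with 2 µM MPA, cells at day 6 without MPA, cells at day 8 with 2 µM MPA, and cells at day 8 without MPA. MPA is named as in the labels, which do not write it out, and it was present from day 5, which makes an exposure of 1 day for the day 6 cells and of 3 days for the day 8 cells. The sources used here give neither the strain of the cells nor whether retinoic acid was part of the medium. With 1 array per group there is no spread between cultures, and the number of arrays limits the precision of every difference. In bulk RNA, fewer cells of a type and less RNA per cell cannot be told apart.

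Retinoic acid is made from vitamin A (retinol) by way of retinaldehyde, and it acts by binding retinoic acid receptors that sit on DNA as partners of retinoid X receptors. Several genes of its own handling answer to it, among them the receptor gene Rarb and the clearance gene Cyp26a1, so that the signal limits itself. In the embryo it patterns the hindbrain and spinal cord and the foregut endoderm from which the pancreas forms, and it is widely used to direct stem cells to either fate.

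The receptors bind pairs of short DNA repeats, and the promoters of Rarb and Cyp26a1 are shown because they hold such a pair and the other member promoters searched do not. The search was for direct repeats of the hexamer AGGTCA or AGTTCA, each also allowed with G as its first letter, with any 5 letters between both copies, on either strand, in RefSeq windows running from 250 bases before to 50 bases after a transcript start (assembly GRCm38.p6). Such a repeat stood in the windows of 2 of the 8 genes matched, and in those of 31 of all 27025 genes (0.115%). Crabp2 had no window and was not searched. Among 35 further genes of retinoid handling and response, 0 had such a repeat. With 2 letters or 1 letter between the hexamers, 0 of the 8 genes had a match, against 0.311% and 0.263% of all genes. A match describes these letters and is not shown to be a site used in these cells. Below are the 250 bases before the start, 5′ to 3′ on the gene's strand, with the repeat in capitals. The Rarb bases lie on the minus strand at chr14:16575477-16575726, with the repeat at positions -53 to -37 from the start. Those of Cyp26a1 lie on the plus strand at chr19:37697558-37697807, with the repeat at positions -32 to -16 and read as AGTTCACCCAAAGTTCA on the opposite strand. Both repeats fall inside the annotated span of their gene (Rarb chr14:16430839-17082331, Cyp26a1 chr19:37697738-37701536). Each window thus belongs to 1 transcript start, which for both genes lies within the annotated span.
Rarb: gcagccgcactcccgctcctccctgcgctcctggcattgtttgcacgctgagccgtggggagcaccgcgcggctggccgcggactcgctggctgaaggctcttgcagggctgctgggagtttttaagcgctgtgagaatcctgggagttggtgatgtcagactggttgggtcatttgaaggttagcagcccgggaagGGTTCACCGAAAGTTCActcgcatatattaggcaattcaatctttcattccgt
Cyp26a1: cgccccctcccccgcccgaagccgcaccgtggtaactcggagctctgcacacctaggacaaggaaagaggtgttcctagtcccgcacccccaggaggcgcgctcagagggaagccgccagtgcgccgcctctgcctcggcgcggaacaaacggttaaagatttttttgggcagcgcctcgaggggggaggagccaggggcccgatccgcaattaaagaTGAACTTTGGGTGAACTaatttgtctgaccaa

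Each array was scaled by the authors to a 2% trimmed mean of 500.004 or 500.003. Between 46.7% and 51.9% of the probe sets lay above 86.8, the median of all probe sets over the 5 arrays, and signals under this floor were raised to it before any fold was taken. A gene was taken as measured between 2 arrays if at least 1 of them lay above the floor, and where the other did not, its fold is only a lower limit, written "at least". Crabp1, Crabp2, Cyp26a1, Cyp26b1 and Dhrs3 were above the floor on all 5 arrays, Rarb on 4, Rarg on 3, Stra6 on 2 and Rara on 1. RNA integrity, read as the 3' over 5' probe signal of Gapdh, stood at 1.08 at day 5, 1.31 with MPA and 1.19 without at day 6, and 1.57 with MPA and 1.55 without at day 8. The same ratio for Actb was 2.08 at day 5, 3.06 with MPA and 3.04 without at day 6, and 2.71 with MPA and 2.81 without at day 8. Of the listed markers of a pancreatic fate, Pdx1 stood between 3.04 and 90.4 and was above the floor only on the day 8 MPA array. Ptf1a (up to 158) and Nkx6-1 (up to 156) were above it on 3 arrays each. Sox9 (207 to 617) and Mnx1 (131 to 1518) were above it throughout. Each array had 3 or 4 of the 5 markers of that list above the floor.

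**Figure D1:**
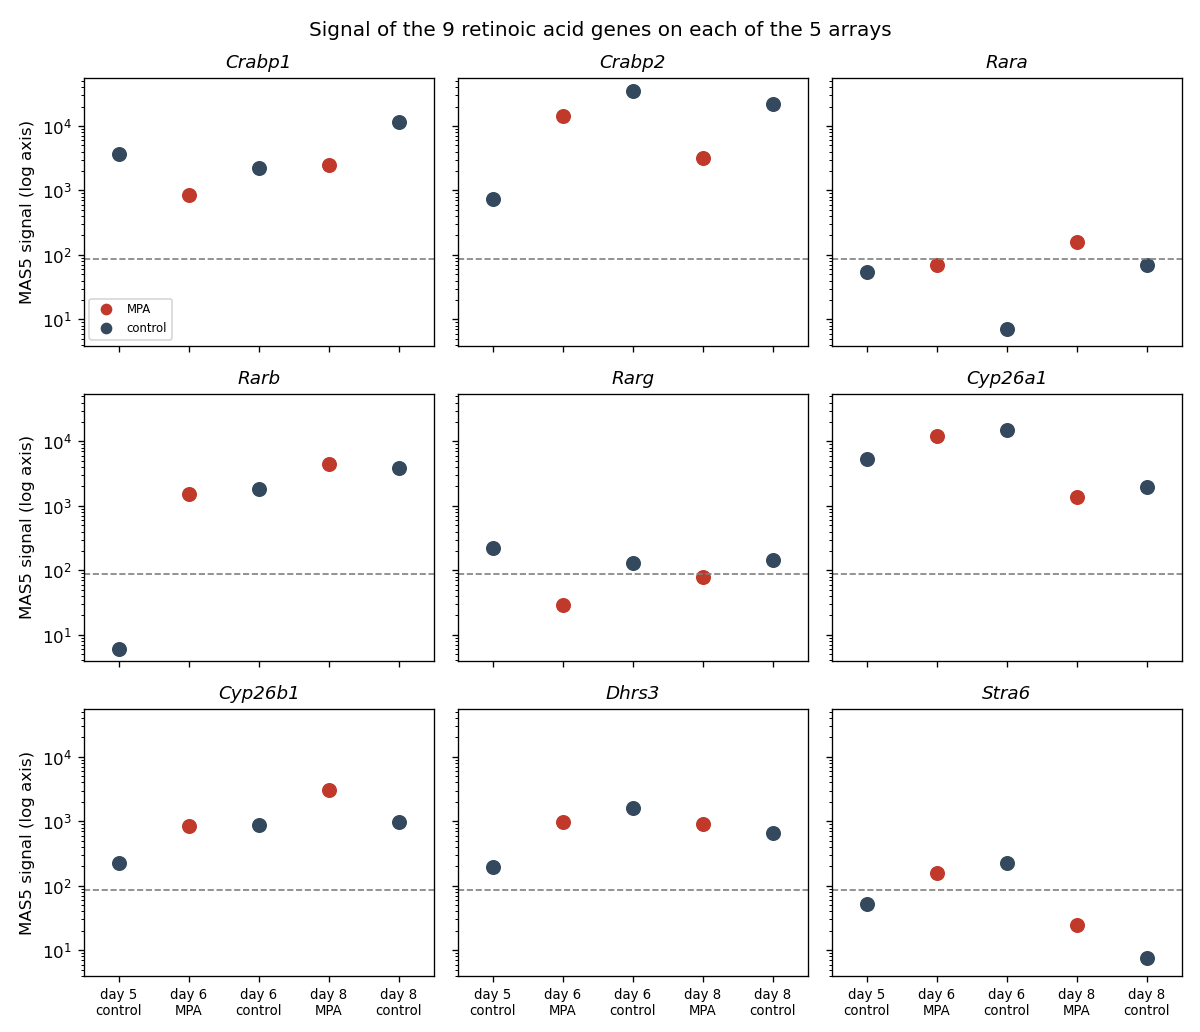
MAS5 signal (log axis) of each of the 9 genes on the 5 arrays, in order of day with MPA (red) left of its control (dark); each point is 1 array and the dashed line is the floor of 86.8. Crabp1 and Crabp2 sit lower with MPA at both days, Rarb is at the floor only at day 5, and Cyp26a1 is highest at day 6 with or without MPA.

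The binding protein genes were the 2 members at least 2-fold below the control under MPA, at day 6 and at day 8. At day 6 Rarg, described below, has only a bound at the floor used, and it lay lower still (log2 -2.21) when the 25th percentile served as floor. CRABP1 and CRABP2 are small cytosolic proteins. CRABP2 carries retinoic acid to the receptors in the nucleus, and CRABP1 is tied mainly to its storage and breakdown. Crabp2 had a signal of 746 at day 5, of 14248 with MPA and 35426 without at day 6, and of 3206 with MPA and 21976 without at day 8. Both MPA arrays lay below both later controls, and all 4 lay above day 5. Relative to its control, the MPA array was 2.49-fold lower at day 6 and 6.85-fold at day 8, a log2 difference of -1.31 and -2.78. Of all measured genes, 1.22% had a lower difference at day 6 and 0.0952% at day 8, where Crabp2 ranked 13 from the lowest of 12599.

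Without MPA, Crabp2 at day 6 was 47.5-fold above day 5, which 1 gene of 12611 exceeded, and day 8 was 1.61-fold below day 6. With MPA it still stood 19.1-fold above day 5 at day 6, and 4.30-fold above it at day 8. The step between the treated arrays was thus larger than that between the controls, with day 8 4.44-fold lower than day 6 under MPA. No replicate bears on this difference between the steps.

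Crabp1 took another course over time and had the same direction under MPA. Its signal was 3711 at day 5, 855 with MPA and 2189 without at day 6, and 2465 with MPA and 11698 without at day 8. Its lowest array was day 6 with MPA and its highest the day 8 control. The MPA arrays were 2.56-fold (day 6) and 4.74-fold (day 8) lower than their controls (log2 -1.36 and -2.25), with 1.07% and 0.206% of measured genes lower still. Between day 6 and day 8 it was 2.88-fold higher with MPA, where Crabp2 was lower, and 5.34-fold higher without.

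Most measured markers of neural progenitors and of neural crest, cell types in which Crabp1 and Crabp2 are known to be expressed in the embryo, were lower on the same arrays. Of 8 neural progenitor markers, 6 of the 7 measured at day 6 and 6 of the 8 at day 8 were at least 2-fold lower with MPA, with medians of -1.39 and -2.86. Of all measured genes, 3.15% were that much lower at day 6 and 3.18% at day 8. Their summed signal was 1087 with MPA and 2418 without at day 6, and 1787 with MPA and 10778 without at day 8. All 8 (Sox1, Pax6, Zic1, Neurog1, Hes5, Rfx4, Nes and Pou3f2) were above the floor in the day 8 control and 3 of 8 with MPA. Further probe sets of Pax6 stood at log2 0.27 and -0.14 at day 6, and at -0.13, 0.32 and -0.34 at day 8. Another of Sox1 stood at -0.07 at day 8, and another of Zic1 at -3.16. For Hes5 a further probe set stood at -0.83 at day 6 and -1.08 at day 8. The probe set used for Nes stood at 0.06 at day 6, and a further one was lower (-1.28). Of 6 neural crest markers, 2 of the 4 measured at day 6 and 3 of the 5 at day 8 were at least 2-fold lower, with a summed signal of 1667 against 2314 in the control at day 6 and 773 against 3310 in the control at day 8. Sox10, of that list, was higher with MPA, 1.76-fold at day 6 and at least 1.38-fold at day 8. At day 8 a further probe set of Tfap2b ran the other way. Further probe sets of Ednrb, Pax3 and Tfap2a fell short of 2-fold there (log2 -0.56, -0.82 and -0.39). Mesenchyme markers, another type that can express these genes, had a summed signal of 1888 against 2517 in the control at day 6 and 9643 against 10095 in the control at day 8. The part of these cell types in the Crabp1 and Crabp2 differences was not tested.

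**Figure D2:**
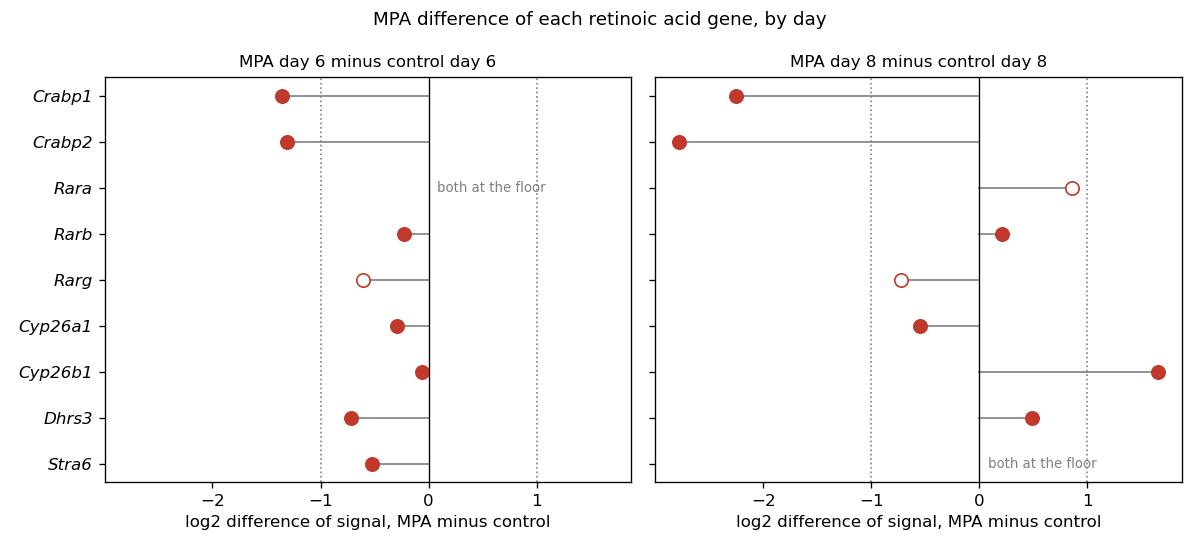
Log2 difference of signal, MPA minus control, for each of the 9 genes at day 6 (left) and day 8 (right), from 1 array per group; open circles are bounds with 1 array at the floor, and dotted lines mark 2-fold. Crabp1 and Crabp2 lie past 2-fold lower on both days, and Cyp26b1 lies at -0.06 at day 6 and at 1.65 at day 8.

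The receptor genes had other patterns than the binding proteins. RARA, RARB and RARG are the nuclear receptors for retinoic acid, and Rarb, whose promoter is printed above, is itself a known target of the signal. Rarb was listed at 6.05 at day 5, at 1549 with MPA and 1818 without at day 6, and at 4529.8 with MPA and 3917 without at day 8. Day 5 stood alone at the floor, and within each later day the MPA and control arrays were close. Treated cells were 1.17-fold lower than control at day 6 and 1.16-fold higher at day 8, sizes that 28.4% of genes undercut at day 6 and 30.5% exceeded at day 8. Over day 5, Rarb stood at least 17.9-fold up with MPA and 21.0-fold up without at day 6, and by day 8 at least 52.2-fold with MPA and 45.1-fold without.

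Rarg, a receptor gene known to be expressed in mouse embryonic stem cells, was dim. It had 222 at day 5, 28.6 with MPA and 132 without at day 6, and 77.6 with MPA and 143 without at day 8. The 3 arrays without MPA were above the floor and both MPA arrays under it. This puts the MPA arrays at least 1.52-fold (day 6) and 1.65-fold (day 8) below their controls. Rara, which encodes the broadly expressed receptor, was listed at 54.6 at day 5, at 69.8 with MPA and 7.04 without at day 6, and at 157 with MPA and 70.5 without at day 8. Only the day 8 MPA array lay above the floor, which gives at least 1.81-fold higher than control at day 8 and no fold at day 6. Signals this close to the floor are noisy, and both genes rest on 1 probe set above it.

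The clearance enzymes differed from each other. CYP26A1 and CYP26B1 are cytochromes that oxidise retinoic acid, Cyp26a1 being the early, quickly induced gene of the pair, and DHRS3 turns retinaldehyde back to retinol. Cyp26a1 had a signal of 5408 at day 5, of 12274 with MPA and 15006 without at day 6, and of 1359 with MPA and 1985 without at day 8. Both day 6 arrays lay above day 5 and both day 8 arrays below it. With MPA it was 1.22-fold (day 6) and 1.46-fold (day 8) below control. The step from day 6 to day 8 was far larger, 9.03-fold lower with MPA and 7.56-fold lower without, so that Cyp26a1 ranked 34 from the lowest of 12257 genes with MPA and 31 of 12824 without.

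At the floor used, Cyp26b1 was the 1 member at least 2-fold higher with MPA. Rara has only a bound at day 8, and it was 2.23-fold higher there when the 25th percentile served as floor. The signal of Cyp26b1 was 225 at day 5, 841 with MPA and 878 without at day 6, and 3093 with MPA and 983 without at day 8. The day 8 MPA array stood above the other 4, while at day 6 both arrays were alike. The MPA difference was 1.04-fold lower at day 6 and 3.14-fold higher at day 8, which 0.571% of genes exceeded. Without MPA, day 6 was 3.90-fold above day 5 and day 8 was 1.12-fold above day 6, whereas with MPA day 8 was 3.68-fold above day 6. Pdgfra, a mesenchyme marker, was likewise higher with MPA at day 8 (1125 against 343 in the control), whereas the other 5 markers of that list were lower there (log2 -0.58 to -0.14), with 1 probe set of Pdgfrb running the other way. Of 6 cardiac markers, the 3 measured were higher with MPA at day 8 (Actc1 3.53-fold, Myh7 1.99-fold and Myl7 1.98-fold). Myh6, Tnnt2 and Nkx2-5 were under the floor on both day 8 arrays. The list summed to 7108 with MPA and 2633 without, of which Actc1 made up 4373 and 1240. Definitive endoderm markers summed to 18201 with MPA and 10997 without, of which Foxa1, 2.21-fold higher, made up 9593 and 4339. Sox17 and Cxcr4 were lower (log2 -1.68 and, as a bound, -2.40). Gata6 stood at log2 0.67 on the probe set used, and at 1.06 and -0.24 on further ones. The part of these cell types in the Cyp26b1 difference was not tested.

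Dhrs3 was highest at day 6 without MPA. It had 192 at day 5, 986 with MPA and 1621 without at day 6, and 907 with MPA and 647 without at day 8. All 4 later arrays lay above day 5. Its MPA array was 1.64-fold lower than control at day 6 and 1.40-fold higher at day 8, and from day 6 to day 8 the signal was 1.09-fold lower with MPA and 2.50-fold lower without. Stra6, the membrane receptor for the retinol carrier RBP4, was listed at 51.5 at day 5, at 158 with MPA and 228 without at day 6, and at 24.5 with MPA and 7.47 without at day 8. It was above the floor only at day 6, where MPA was 1.44-fold lower than control, and no MPA fold is given for day 8.

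Set beside all genes, the count of members 2-fold or more apart (written 2-fold higher or lower) can be read only as a description, since the genes were chosen on these contrasts. For MPA at day 6, 8 members were measured, 0 were 2-fold higher (4.02% of all 12240 measured genes were) and 2 were 2-fold lower (3.15% of all were). All 8 lay below the control, where 48.5% of all genes did, with a median log2 difference of -0.57 against 0.02 over all genes. Rarg is among the 8 through its control array alone, its MPA array lying under the floor. Rara, not measured because both arrays lay under the floor, was listed higher with MPA (69.8 against 7.04 in the control). For MPA at day 8, 8 were measured, 1 was 2-fold higher (3.72% of all genes) and 2 were 2-fold lower (3.18%), with 4 above and 4 below the control and a median of -0.17 against -0.02 over all genes. Rarb, Cyp26b1 and Dhrs3 lay below the control at day 6 and above it at day 8.

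**Figure D3:**
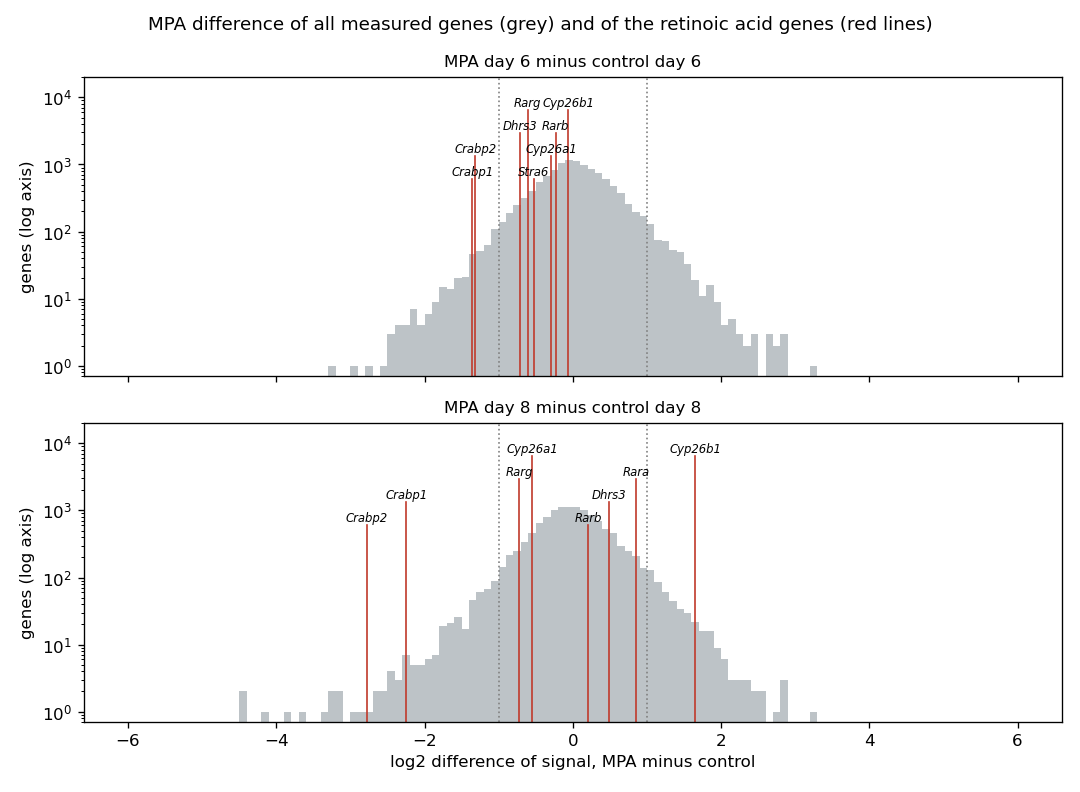
Number of genes (log axis) by log2 difference of signal, MPA minus control, at day 6 (top) and day 8 (bottom), with each measured retinoic acid gene marked by a red line; line heights only separate the names. At day 8 Crabp2 and Crabp1 stand at -2.78 and -2.25 in the low tail, and Cyp26b1 at 1.65 in the high tail.

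The arrays without MPA show how the members differed between days. From day 5 to day 6, 6 of 8 measured members were at least 2-fold higher (5.46% of all genes) and 0 were 2-fold lower (4.4%). These were Crabp2, Rarb, Cyp26a1, Cyp26b1, Dhrs3 (8.45-fold) and Stra6 (at least 2.62-fold), and the other 2, Crabp1 and Rarg, were 1.70-fold and 1.68-fold lower. From day 6 to day 8, Crabp1 and Rarb were 2-fold higher (7.07% of all genes) and Cyp26a1, Dhrs3 and Stra6 2-fold lower (6.43%). Over the whole span from day 5 to day 8, 5 of 7 were 2-fold higher (9.61% of all genes) and Cyp26a1 was 2-fold lower (7.27%). Between the treated arrays, from day 6 to day 8, 3 of 8 were 2-fold higher (7.64% of all genes) and 2 were 2-fold lower (7.64%). These comparisons share arrays with each other and with the MPA comparisons, so their values are not independent.

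The rest of the pathway gives the setting of the members. Of 51 listed genes of retinoid supply, synthesis, receptor partners, further clearance and response, 43 were on the array under a single symbol. With MPA at day 6, 2 of the 32 measured were 2-fold higher and 4 were 2-fold lower, with a median of -0.01, where 4.02% and 3.15% of all measured genes were. At day 8, 4 of the 37 measured were 2-fold higher and 0 were 2-fold lower, with a median of 0.06, where 3.72% and 3.18% of all genes were. The medians over all genes were 0.02 and -0.02.

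Among the synthesis genes, 6 of 10 were measured at day 6 and all 10 at day 8. Rdh11, of a retinol dehydrogenase, was 2.09-fold lower with MPA at day 6, with 1186 against 2481 in the control, and its other probe set ran the same way. Aldh1a2, which encodes the main retinaldehyde dehydrogenase of the early embryo, had 401 with MPA and 195 without at day 8, 2.06-fold higher. Aldh1a1, a related enzyme gene, had 1010.3 with MPA and 522 without at day 8, 1.94-fold higher. Rdh10, of the enzyme that makes retinaldehyde in the embryo, had 829 with MPA and 451 without at day 6, and 1931 with MPA and 1898 without at day 8.

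Retinol supply was led by secreted carrier genes. Ttr, of transthyretin, which travels with the retinol carrier in blood, had 2415 with MPA and 342 without at day 6, 7.06-fold higher, and 1742 with MPA and 1234 without at day 8. Rbp4, of the retinol carrier itself, had 548 with MPA and 182 without at day 6, a log2 difference of 1.59, and 759 with MPA and 797 without at day 8. These 2 were the supply genes past 2-fold at day 6, out of 3 measured, and 0 of 4 were past it at day 8. Ttr is also a marker of hepatic cells. Of the other 3 hepatic markers, Apoa1 had 145 with MPA and 126 without at day 6 and was under the floor at day 8. Its further probe sets stood at log2 0.03, 0.76 and 0.63 at day 6. On the probe set used, Afp was above the floor only in the day 8 control (120). Further probe sets of Afp stood at log2 -0.60, 0.07 and -0.40 at day 8. Alb was above the floor only at day 5. The summed signal of the 4 hepatic markers was 2638 with MPA and 544 without at day 6, and 1825 with MPA and 1361 without at day 8. Their part in the Ttr and Rbp4 differences was not tested. Of the genes of retinoid X receptors and cofactors, 0 of 9 measured at day 6 and 0 of 8 at day 8 were past 2-fold. Ppard, of another nuclear receptor that binds lipids, had 192 with MPA and 127 without at day 6, and 110.1 with MPA and 6.21 without at day 8, at least 1.27-fold higher, and it passed 2-fold there on the log2(signal + floor) scale. Rxrb, of a retinoid X receptor, had 1098 with MPA and 1653 without at day 6, and Nrip1, of a receptor corepressor, 4021 with MPA and 2574 without. Further probe sets of Nrip1 reached a log2 of 1.03 and 1.01 at day 6, and of 1.91 and -0.17 at day 8, where the one used stood at 0.01. Cyp2s1, of a cytochrome whose human form can also oxidise retinoic acid, had 403 with MPA and 132 without at day 8, 3.06-fold higher.

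Response genes went both ways on each day, with 4 of 12 above the control at day 6 and 9 of 12 at day 8. With MPA at day 6, 3 of 12 measured were 2-fold lower and 0 were 2-fold higher, with a median of -0.18 (3.15% and 4.02% of all genes). At day 8, 0 of 12 were 2-fold lower and 2 were 2-fold higher, with a median of 0.28 (3.18% and 3.72% of all genes). Nr2f1, of a COUP-TF receptor, had 257 with MPA and 778 without at day 6, 3.03-fold lower, and 5948 with MPA and 4822 without at day 8. Hoxb4 had 501 with MPA and 1080.1 without at day 6, 2.15-fold lower, and 1682 with MPA and 2000.1 without at day 8. Tgm2, of a transglutaminase known to be induced by retinoic acid, had 9610.2 with MPA and 8308 without at day 6, and 6495 with MPA and 2899 without at day 8, 2.24-fold higher, although 1 of its further probe sets ran the other way at day 8. Stra8, known as a retinoic acid target of germ cells, had 216 with MPA and 124 without at day 6, 1.74-fold higher, and 163 with MPA and 7.83 without at day 8, at least 1.88-fold higher. The remaining ones past 2-fold, named after their values were seen, were Hoxa3 at day 6 (log2 -1.18, with another probe set at 0.02) and Hoxb1 at day 8 (log2 1.29).

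**Figure D4:**
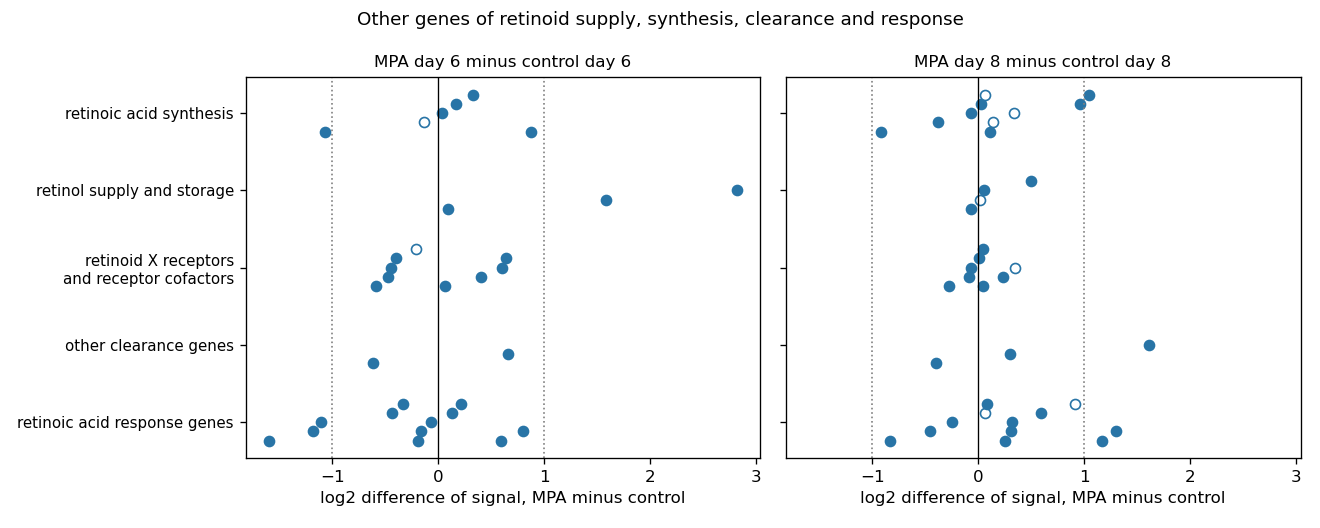
Log2 difference of signal, MPA minus control, at day 6 (left) and day 8 (right) for the measured genes of 5 lists around the pathway; each point is a gene on 1 array per group, open circles are bounds, and dotted lines mark 2-fold. Ttr and Rbp4 are the supply genes at 2.82 and 1.59 at day 6, and the cofactor genes all lie within 2-fold on the probe sets used.

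Genes with the most alike course over the 5 arrays were found by the root mean square of the differences between log2 signals centred per gene, among 10840 genes above the floor on at least 3 arrays. For Crabp1 these were Ndnf, Peg12 and Tmem132c, at distances of 0.34, 0.35 and 0.39 log2 units, where the median gene lay at 1.28. Ndnf had 675 at day 5, 96.2 with MPA and 247 without at day 6, and 235 with MPA and 1113 without at day 8. For Crabp2 the nearest were Ednrb, an endothelin receptor gene of neural crest, then Meox1 and Spsb4, at 0.63, 0.91 and 0.93 (median 2.06). For Rarb they were Hoxc5, Hoxa5 and Tshz1, at 0.45, 0.49 and 0.62 (median 2.08). For Cyp26a1 they were Acss1, Hey1 and Lgmn, at 0.31, 0.32 and 0.36 (median 1.40). With 5 arrays and this many genes, some profiles lie close by the number of genes alone, and nothing follows from these distances about function or control.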

How the data were processed

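Per the labels' protocols, biotin-labelled cRNA from total RNA was hybridised to Affymetrix mouse arrays, 1 per group. The authors deposited a linear intensity per probe set and array, made with MAS5 per the submitters' processing notes. The sources used here do not give its version or settings. Of 45101 probe sets, 64 controls, 932 with several symbols and 9160 unnamed here were left out, and 34945 gave 18193 genes, each represented by its probe set of highest mean intensity. Symbols came from the platform annotation. The bases printed came from RefSeq (GRCm38.p6).

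Computed here with Python 3.11.15, numpy 2.4.6 and pandas 2.3.3: intensities were raised to a floor of 86.8 (the 50th percentile), taken to log2, and differenced between pairs of arrays. Genes 2-fold or more apart were counted. No test was run, since each group had 1 array. The fold steps were tested on simulated data.

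The members, lists and comparisons were chosen with earlier results of these data known. All members are named. For the related lists the rule allows up to 4 genes with the largest mean MPA difference over both days, not all of which are printed, and exceptions are stated. The 7 alternatives were quantile normalization, median centring, a floor at the 25th or at the 75th percentile, log2 of the sum of signal and floor, averaging all probe sets of a gene, and dropping those that end in _s_at, _x_at or _a_at.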

Additional observations from a re-analysis of the deposited data

Results flagged for a closer look

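For 3 of the 7 members measured on both days, the MPA array lay below its control at day 6 and above it at day 8. The log2 difference at day 8 minus that at day 6 was 1.71 for Cyp26b1, 1.20 for Dhrs3 and 0.44 for Rarb. With 1 array per group this change between the days was not tested. At day 6 the differences were -0.06 for Cyp26b1, -0.72 for Dhrs3 and -0.23 for Rarb, and at day 8 they were 1.65, 0.49 and 0.21 in the same order.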

How the results depend on the processing

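Crabp1 (where it had a value) and Crabp2 stayed at least 2-fold lower with MPA on both days, and Cyp26b1 at least 2-fold higher at day 8, under all 7 alternatives. For these 3 genes in the MPA comparisons, only quantile normalization, median centring and log2(signal + floor) could move the value. Over the 6 comparisons, 292 of 299 member values kept their direction and their side of 2-fold. Of the others, 5 passed 2-fold under an alternative, 1 no longer did and 1, near 0, turned sign (Rarg in the controls from day 6 to day 8, with quantile normalization). Part of this was fixed in advance, since 8 members have 1 probe set, which averaging leaves as it was. Likewise, another floor leaves genes above it on both arrays as they were. With a floor at the 25th percentile (14.7), the members 2-fold apart numbered 4 in place of 2 for MPA at day 6, where Rarg reached a log2 of -2.21 and Rara, then measured, 2.25. They numbered 4 in place of 3 for MPA at day 8, where Rara reached a log2 of 1.16, and 8 in place of 5 from day 6 to day 8 with MPA. Without probe sets ending in _s_at, _x_at or _a_at, which removes Crabp1, Rara, Rarg and Dhrs3, they numbered 1 for MPA at day 6 and 3 in place of 5 from day 6 to day 8 in the controls. With the floor at the 75th percentile (388), Dhrs3 at day 8 against day 5 fell short of 2-fold (log2 0.74), since its day 5 signal then lies at the floor. Among the related lists, the floor at the 75th percentile left 1 supply gene (in place of 2) 2-fold apart at day 6, and 0 synthesis (in place of 1), 0 further clearance (in place of 1) and 1 response gene (in place of 2) at day 8. The floor at the 25th percentile gave 5 synthesis, 4 supply, 1 cofactor and 1 further clearance gene at day 6, and 2 synthesis, 2 supply, 1 cofactor and 4 response genes at day 8. With log2(signal + floor) there was 1 response gene (in place of 3) at day 6 and 1 cofactor gene (in place of 0) at day 8, with the mean over probe sets 1 response gene (in place of 2) at day 8, and without the suffixed probe sets 1 supply gene at day 6. No paired analysis was possible because each group had 1 array. The dim genes Rara, Rarg and Stra6 are limited by their closeness to the floor.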
